A study of Mus musculus with 24 samples.

Results

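The descending colon was compared with the corpus of the stomach in conventional mice, that is, mice that carry a microbiota. Both groups held 3 arrays, and these 6 arrays were chosen by their titles, as groups whose region markers fit those titles, from the 24 of the study, which also measured jejunum and rectum and repeated the 4 regions in germ-free mice. The corpus was taken as all of the stomach but the antrum, and the descending colon as the 2 cm that lie just before the rectum. Whole tissue was used, so epithelium, muscle and connective tissue enter each RNA together. The labels give no strain, age or sex, do not say whether arrays of equal number came from the same mouse, and do not mention pooling. The p-values below therefore measure the spread between these arrays.

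The corpus is lined by glands whose parietal cells secrete acid, whose chief cells secrete digestive enzymes and whose surface and neck cells secrete a protective mucus. In mice a keratinised squamous epithelium lines the upper part of the stomach. The colon has no acid-secreting glands: its crypts hold absorptive colonocytes, which take up water, salt and short-chain fatty acids, and goblet cells, which make the mucus layer that keeps bacteria from the epithelium. The regions are set apart in the embryo, in part by homeobox transcription factors expressed in order along the gut.

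Of 12488 probe sets, 66 were controls, and 7753 had enough signal to be tested. Signal is the intensity deposited by the authors, in arbitrary units, and values under 21.2 were raised to that floor before log2 was taken. Differences are given as log2 of descending colon over corpus ± SE, with limma p-values corrected across those 7753 by Benjamini-Hochberg. A probe set was called at an adjusted p under 0.05. Where the lower group lay at or under the floor on all of its arrays, a fold is written as "at least". Where only some arrays of the lower group lay under the floor, the fold is understated as well, but is written plainly. In whole tissue, fewer cells of a type and less RNA per cell cannot be told apart.

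Since region markers entered the choice of the groups, their values describe the arrays and do not test the labels. The folds and p-values given for them below are descriptive in the same way. Markers of the corpus glands are Atp4a, Atp4b, Cblif, Tff1, Tff2 and Muc5ac. Those of the squamous part are Krt4, Krt13, Sprr3, Lgals7 and Krtdap. Those of the colon are Car1, Car4, Aqp8, Hoxb13, Cdx1, Zg16 and Tff3. Atp4a, which encodes the catalytic chain of the acid pump, read 7435.3, 9741.8 and 10364 in the corpus and 127.6, 121.4 and 203.1 in the colon. Hoxb13, a homeobox gene of the hindgut, read 1727.8, 1478 and 1543.4 in the colon and 33.2, 31 and 35.1 in the corpus. Log2 signals correlated at 0.92 to 0.946 among the colon arrays, at 0.931 to 0.959 among the corpus arrays and at 0.697 to 0.752 between the regions, across probe sets. Median array signals ran from 78.9 to 85.9.

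A difference was called for 1604 probe sets, 20.7% of those tested, with 785 higher in the colon (10.1%) and 819 higher in the corpus (10.6%). They named 1346 genes. Of the calls, 1042 exceeded 2-fold, 78 exceeded 10-fold in favour of the colon and 91 in favour of the corpus, and 21 and 34 exceeded 50-fold. The median log2 difference over all probe sets tested was -0.02. For 4529 probe sets (58.4%) the 95% confidence interval lay within 2-fold either way, and for 1697 that were not called it reached past 2-fold. The 3 arrays of one region lay all above the 3 of the other for 3013 probe sets (38.9%), among them 1603 of the calls.

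**Figure D1:**
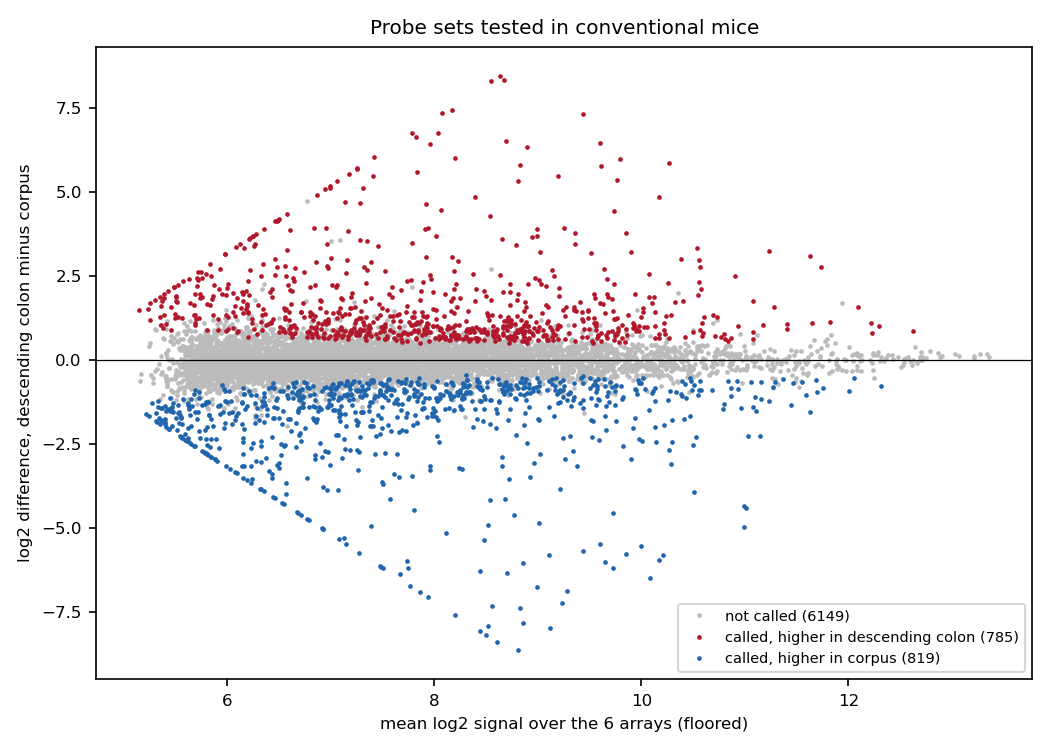
Log2 difference between descending colon and corpus (vertical axis) against the mean log2 signal of the 6 arrays (horizontal axis) for the 7753 probe sets tested. Red points are the 785 called higher in the colon, blue points the 819 called higher in the corpus and grey points were not called; calls reach beyond 8 log2 units in both directions.

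The 12 genes of largest difference in each direction were products of a few epithelia. On the colon side stood goblet cell products (Retnlb, Zg16, Tff3, Fcgbp), surface proteins of the absorptive epithelium (Muc3, Cldn7, Ceacam1), the carbonic anhydrase Car1, the antimicrobial or acute phase genes Pla2g2a and Saa2, the secretory granule protein Sycn and 2610528A11Rik, a gene known here by a clone name. On the corpus side stood genes of keratinised epithelium (Krtdap, Lgals7, Crct1, Sprr3, Krt13, Krt1, Rptn and the metallothionein Mt4) and genes of the gastric glands (Atp4b, Cblif, Tff2 and Ghrl). Their differences ran from 6.42 to 8.45 in favour of the colon and from -6.91 to -8.64 in favour of the corpus on the log2 scale, and the 2 groups of arrays did not overlap for any of the 24, as the rule for naming them required.

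**Figure D2:**
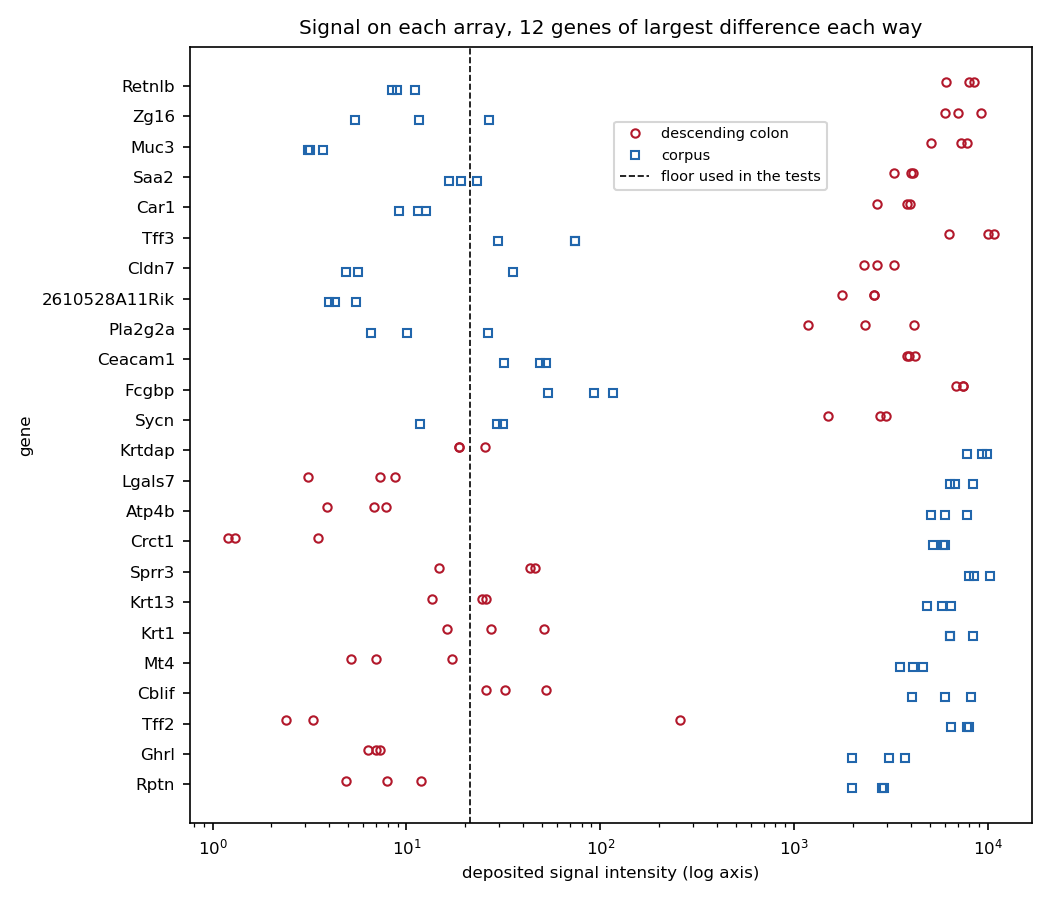
Deposited signal on each of the 6 arrays (log axis) for the 12 genes of largest difference in each direction; circles are the 3 descending colon arrays, squares the 3 corpus arrays and the dashed line the floor of 21.2. The groups stand far apart in each gene, and 1 colon array reads 258.7 for Tff2 where the others lie under the floor.

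Genes of the acid-secreting and enzyme-secreting glands were among those with the highest corpus signal. Atp4b, the partner subunit of Atp4a in the proton pump, read 5095.1, 5993.3 and 7751.2 in the corpus and 6.8, 3.9 and 7.8 in the colon, a difference of at least 291.8-fold (-8.19 ± 0.18, adjusted p 4.81e-08). Cblif, gastric intrinsic factor, which binds vitamin B12, read 4034, 6001.4 and 8121.7 against 32.4, 25.6 and 52.7 (-7.37 ± 0.32). Chia1, an acidic chitinase of the stomach, read 2699.5, 6281.9 and 8716.5 against 53.8, 47.6 and 46 (-6.75 ± 0.38). In each of these genes all corpus arrays lay far above all colon arrays, although the corpus arrays differed among themselves by up to about 3 times.

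Of 12 parietal cell and acid secretion genes tested, 6 were lower in the colon and 2 higher, with a median log2 difference of -0.59. Over all 5888 genes tested 10.5% were called higher and 11.2% lower, with a median of -0.01. Beside the pump subunits, the potassium channel gene Kcnj15 was at least 7.353-fold lower in the colon, and Vegfb was 1.977-fold lower. The members higher in the colon were Tmprss2, a membrane serine protease (2.20 ± 0.20, adjusted p 0.000109), and the water channel gene Aqp4 (2.95 ± 0.50, adjusted p 0.00381). Aqp4 read 675.5, 1973.5 and 433.9 in the colon against 80.7, 119.6 and 130.7 in the corpus. Without corpus array 2 the count of lower members was 3.

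Surface and neck mucus genes were lower in the colon for 6 of 8 tested, with a median log2 difference of -5.36. Psca, a surface cell antigen, read 8914.7, 10026 and 11906 in the corpus and 119.5, 102.1 and 123.2 in the colon (-6.48 ± 0.16, adjusted p 7.88e-08). Muc5ac, the secreted mucin of the gastric surface, was at least 53.37-fold lower and Anxa10, an annexin, at least 73.2-fold lower. Tff1, a trefoil peptide stored with that mucin, read 9347.6, 11896 and 13300 against 453.5, 450.8 and 233.6 (-4.97 ± 0.28). Tff2, the trefoil peptide of neck cells, read 6432.5, 7798 and 7994.3 in the corpus, while colon array 2 read 258.7 and the other colon arrays 2.4 and 3.3, which gave it a wide error (-7.24 ± 0.86, adjusted p 0.000555). Muc1, a membrane mucin, was 8.905-fold lower. Without colon array 3, 1 member was called higher.

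The list with the most members on the corpus side was the squamous epithelium, with 26 of 33 genes tested lower in the colon, 1 higher and a median log2 difference of -2.26. Lor, loricrin, is also on that list, but under a spelling that matched no probe set, so it is not among the 33; it differed by -5.78 ± 0.27. Krtdap, a secreted protein of differentiating keratinocytes, read 7788.9, 9347.2 and 9860.8 in the corpus and 25.4, 18.6 and 18.6 in the colon, 397.7-fold lower (-8.64 ± 0.16, adjusted p 3.17e-08). Lgals7, a galectin of stratified epithelia, was at least 335.9-fold lower and Crct1 at least 267.1-fold lower. The keratin genes Krt4 and Krt13, a pair of the non-basal squamous layers, were lower by 5.81 ± 0.14 and 7.30 ± 0.19 log2 units, and Krt10, a keratin of cornified layers, by 6.87 ± 0.22. Krt5, the basal keratin, lay under the floor on the corpus arrays, at 9.2, 10.2 and 20.5, so that its probe set measured no level above the floor there. In the colon it read 29, 10.2 and 8.7, and it was too dim to be tested.

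Sprr genes, which encode small proline-rich proteins of the cornified envelope, differed among themselves. Sprr3 read 8431.5, 7927 and 10235 in the corpus against 45.8, 43.4 and 14.7 in the colon (-7.98 ± 0.29). Sprr2e and Sprr2b, chosen after their values were seen, had high signals in both regions, at 4325 to 9766.2 and 7160 to 11904 in the colon, and differed by 0.24 ± 0.33 and 0.06 ± 0.23 (adjusted p 0.664 and 0.891). The Sprr2 genes are close copies of each other, and which of them such a probe set reads is uncertain. Tgm3, a transglutaminase, was the 1 member of the squamous list that was higher in the colon (1.89 ± 0.25, adjusted p 0.00104), also named after its values were seen.

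Promoters of 4 strongly regional genes are shown because members of these groups differ together between the regions. The letters come from RefSeq (GRCm38.p6) and run from 250 bases before to 50 bases after the start site, and the genes were picked after the motifs had been found. Of the 78 genes with a difference called and over 10-fold in favour of the corpus, 55 matched the promoter table, and of 65 in favour of the colon 47 matched. Searched on both strands were TTTATG, a site of the CDX type, AGATAA, of the GATA type, GTTAAT, of the HNF1 type, TGANTCA, of the AP-1 type, and the TATA box as TATAAA. Capitals mark the matches, which may overlap, as they did in 76 of the 27025 promoters of the table.
Krtdap, chr7:30787655-30787954, plus strand: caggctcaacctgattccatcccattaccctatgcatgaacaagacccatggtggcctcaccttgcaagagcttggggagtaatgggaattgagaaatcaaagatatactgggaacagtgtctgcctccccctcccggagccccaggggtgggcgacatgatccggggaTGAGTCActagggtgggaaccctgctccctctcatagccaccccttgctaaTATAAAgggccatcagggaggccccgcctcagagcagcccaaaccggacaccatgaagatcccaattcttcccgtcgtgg
Sprr1a, chr3:92485832-92486131, minus strand: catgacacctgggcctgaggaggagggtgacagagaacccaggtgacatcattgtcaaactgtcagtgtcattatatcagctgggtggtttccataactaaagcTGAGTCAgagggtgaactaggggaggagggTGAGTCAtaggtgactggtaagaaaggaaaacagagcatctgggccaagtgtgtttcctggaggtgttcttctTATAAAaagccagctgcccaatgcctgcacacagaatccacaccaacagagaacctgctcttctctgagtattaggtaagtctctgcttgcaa
Muc13, chr16:33793787-33794086, plus strand: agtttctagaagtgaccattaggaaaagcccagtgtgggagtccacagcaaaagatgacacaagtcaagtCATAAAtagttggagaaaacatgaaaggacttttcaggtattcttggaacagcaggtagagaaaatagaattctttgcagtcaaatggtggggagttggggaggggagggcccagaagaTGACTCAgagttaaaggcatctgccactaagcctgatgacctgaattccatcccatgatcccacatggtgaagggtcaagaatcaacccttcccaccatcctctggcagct
Cdhr5, chr7:141276737-141277036, minus strand: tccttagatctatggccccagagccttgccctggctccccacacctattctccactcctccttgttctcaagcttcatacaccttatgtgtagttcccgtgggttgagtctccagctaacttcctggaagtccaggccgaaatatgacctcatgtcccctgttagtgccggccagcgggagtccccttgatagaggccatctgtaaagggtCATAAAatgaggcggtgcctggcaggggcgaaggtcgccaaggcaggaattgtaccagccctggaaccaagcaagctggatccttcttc

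Krtdap holds TGANTCA beginning 81 bases and TATAAA beginning 30 bases before its start site. Sprr1a holds TGANTCA at 146 and 116 bases and TATAAA at 43 bases before it. TGANTCA was in 14 of the 55 corpus promoters (25.5%), in 2 of the 47 colon promoters (4.26%) and in 268 of the 4731 promoters of all genes tested that matched (5.66%). Among the 14 genes were Krtdap, Krt13, Rptn, Sprr1a and Lor of the squamous genes, and Ghrl, which encodes a gastric hormone. Rptn, Flg, Sprr1a, Lor and Sprr2d, all among the 14, lie on chr3. Whether their matches are independent was not tested. Muc13 holds TTTATG, on the minus strand, at 180 bases and TGANTCA at 61 bases before its start site, and Cdhr5 holds TTTATG, on the minus strand, at 39 bases. TTTATG was in 8 of the 47 colon promoters (17%), in 5 of the 55 corpus promoters (9.09%) and in 6.72% of all. The shares of TATAAA were 27.7%, 32.7% and 8.45%, those of AGATAA 8.51%, 9.09% and 6%, and those of GTTAAT 14.9%, 9.09% and 4.14%, in the order colon, corpus and all. These matches describe letters in the window and were not tested as sites.

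Colonocyte and colonic transport genes were higher in the colon for 17 of 21 tested, with 1 lower and a median log2 difference of 3.60. Muc3, a membrane mucin of the brush border, read 7816.1, 5090.7 and 7242 in the colon and 3.2, 3.1 and 3.7 in the corpus, at least 311.6-fold higher (8.28 ± 0.19, adjusted p 5.22e-08). Car1, a cytosolic carbonic anhydrase, read 3974.3, 3833.8 and 2682.5 against 9.2, 11.5 and 12.6, at least 162.5-fold higher. The membrane-bound Car4 read 3444.4, 2912.3 and 3816.8 against 63.7, 77.6 and 46.1 (5.79 ± 0.22). No colon array came within 10-fold of a corpus array in these 3 genes.

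Hsd11b2, which inactivates glucocorticoids and so leaves the mineralocorticoid receptor to aldosterone, was at least 51.88-fold higher in the colon (5.70 ± 0.16). Ceacam1, a cell adhesion molecule, read 6846.6, 5484.4 and 4572.5 in the colon against 118.4, 171.7 and 122.1, and Selenbp1, a selenium-binding protein, was 13.8-fold higher. Aqp8, a water channel of the colonic surface and a marker gene, read 1425, 1508.9 and 915.8 against 45.2, 64.9 and 63.1 (4.46 ± 0.24, adjusted p 5.44e-06). The 1 member lower in the colon was Lypd8 (-0.98 ± 0.28, adjusted p 0.0415), named after its values were seen. That call was lost on leaving out any corpus array or colon array 1 or 2.

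Carbonic anhydrase genes differed in both directions: of 5 tested, Car1, Car4 and Car3 were higher in the colon and Car12 was lower (-1.54 ± 0.29). Car2, the widespread cytosolic form, read 4940.7, 4056.2 and 4155.4 in the colon and 5135.6, 5964.8 and 4991.6 in the corpus, a difference of -0.29 ± 0.16 that was not called (adjusted p 0.251). The groups did not overlap for Car2, although the difference was small. Tight junction genes were higher in the colon for 6 of 10 tested and lower for 1. On leaving out 1 array, the count of higher members was 4 to 5. Cldn3 and Cldn7, claudins of simple epithelia, read 1832.2 to 2668.5 and 2280.2 to 3278.1 in the colon and 35.9 to 37.9 and 4.9 to 35.6 in the corpus. Cldn2, a claudin that forms cation pores, was at least 10.8-fold higher, Cldn8 was 8.204-fold higher and Cldn1 was 3.504-fold lower.

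Goblet cell genes formed the list of highest median, 5.45 on the log2 scale, with 11 of 13 members higher in the colon and 0 lower. Retnlb, a secreted resistin-like protein, read 8443.7, 7974.9 and 6040.9 in the colon and 8.4, 11.1 and 8.9 in the corpus, at least 349.5-fold higher (8.45 ± 0.17, adjusted p 3.76e-08). Zg16, a lectin that binds Gram-positive bacteria, read 9136, 6025 and 6999.8 against 11.6, 5.4 and 26.6 (8.31 ± 0.20). Tff3, the intestinal trefoil peptide, read 9925.1, 6291.2 and 10681 against 73.8, 74 and 29.7 (7.32 ± 0.37). Trefoil peptides thus divided by region: Tff3 was higher in the colon, Tff1 and Tff2 in the corpus.

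Fcgbp, a mucus protein, was 86.56-fold higher in the colon, and Muc13, a membrane mucin whose promoter is shown above, 43.82-fold. Klk1, a tissue kallikrein, read 6386, 5886.8 and 5182.4 against 83.8, 146 and 96.8 (5.78 ± 0.22); its probe set can bind related kallikreins. The goblet cell factor Spdef, named after its values were seen, was not called (1.19 ± 0.52, adjusted p 0.152). Of genes that build mucosal glycans, 5 of 18 tested were higher in the colon and 0 lower. These were the sialyltransferase genes St3gal6 (8.384-fold), St6galnac4 (6.121-fold) and St6gal1 (6.29-fold) and the fucosyltransferase genes Fut8 (3.893-fold) and Fut4 (1.972-fold).

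Brush border and enterocyte genes had 6 of 16 members higher in the colon and 3 lower, with a median log2 difference of 0.61. Cdhr5, a protocadherin that links microvilli, was 24.86-fold higher, Mep1b, a meprin protease subunit, at least 17.63-fold higher and Vil1, villin, 12.91-fold higher. Apolipoprotein genes went the other way. Apoa1 read 1549.4, 2806.7 and 2752.6 in the corpus and 161.5, 50 and 6.8 in the colon (-5.36 ± 0.64, adjusted p 0.000586), and Apoa4 read 172.9, 215.3 and 249 against 26.7, 23.2 and 11.3 (-3.15 ± 0.23). Colon array 1 was the highest of the colon arrays for Apoa1, still under every corpus array. With 24 or with 12 conventional arrays in the fit, none of the 3 lower members was called.

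**Figure D3:**
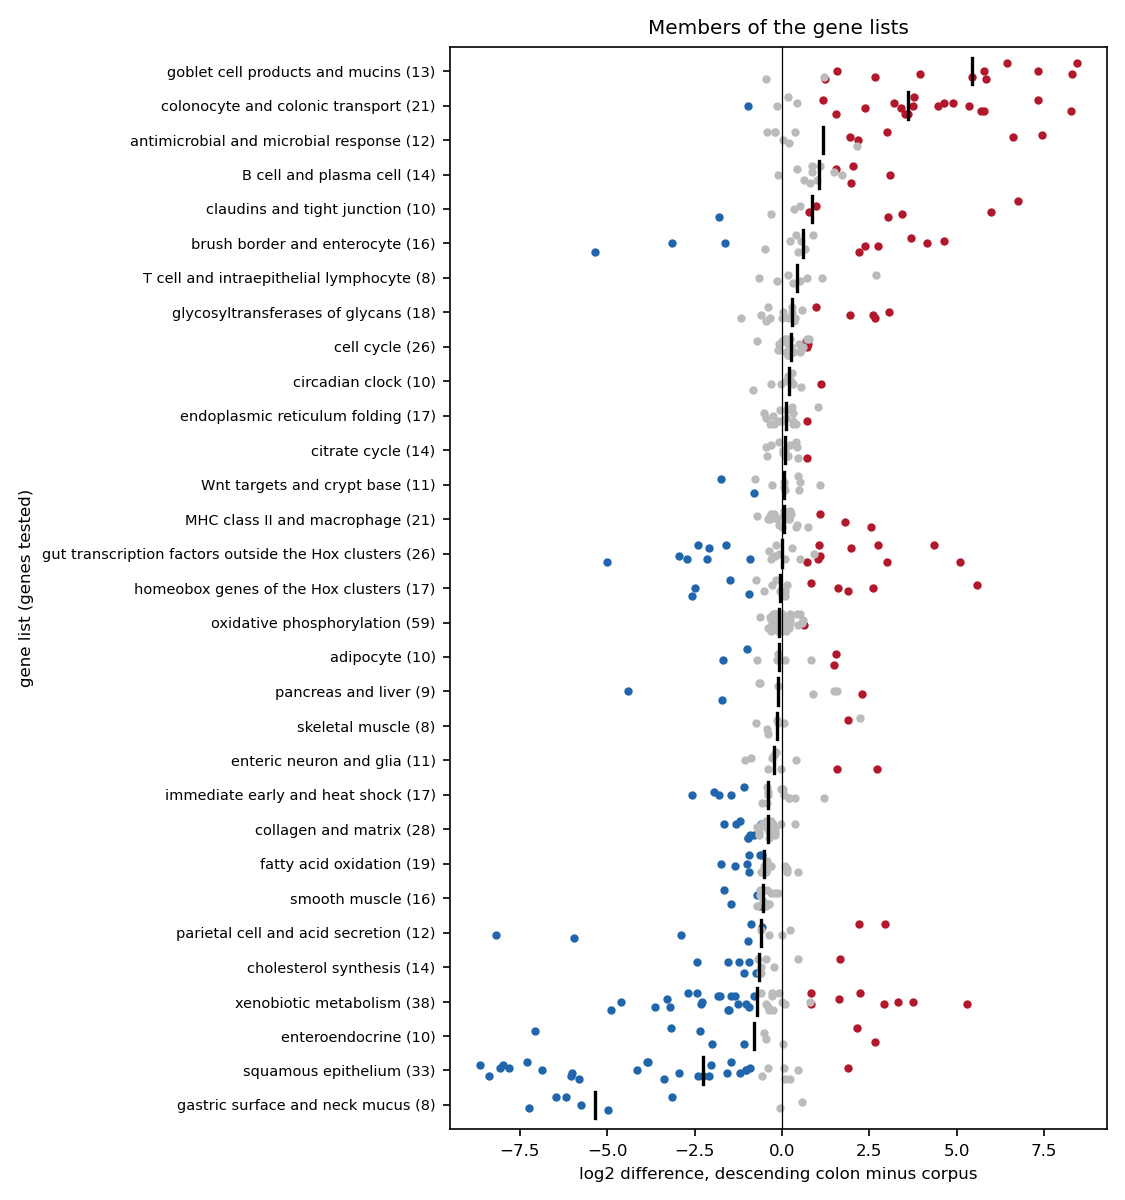
Log2 difference between descending colon and corpus for each gene tested in the lists with 8 or more such genes, lists ordered by their median (black bar); red points were called higher in the colon, blue points higher in the corpus, and grey points were not called. Goblet cell and colonocyte genes lie to the right, squamous and gastric mucus genes to the left, and oxidative phosphorylation genes close to 0.

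Antimicrobial and microbial response genes were higher in the colon for 5 of 12 tested, and 0 were lower. Saa2, a serum amyloid A gene, read 3988.8, 3283.1 and 4117.7 in the colon and 16.6, 19.1 and 23.1 in the corpus, 173.2-fold higher (7.44 ± 0.16); its probe set can bind related transcripts. Pla2g2a, a secreted phospholipase that kills bacteria, read 2303.1, 4165.3 and 1182.6 against 26.4, 6.6 and 10.1 (6.62 ± 0.40, adjusted p 1.05e-05). Dmbt1, a scavenger protein of mucus, was 8.016-fold higher, Wfdc2, a small secreted protein, 3.859-fold and Tnfaip3, an inhibitor of NF-kB signalling, at least 4.486-fold.

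B cell and plasma cell genes were higher in the colon for 4 of 14 tested and lower for 0. Pigr, the epithelial receptor that carries IgA into the lumen, read 10771, 7034.5 and 10465 in the colon and 1274.8, 1965.2 and 510.5 in the corpus (3.09 ± 0.45, adjusted p 0.00166). The B cell genes Cd79a, Cd79b and Cd37 were 2.902-fold, 4.105-fold and 3.97-fold higher. Igha, the heavy chain of IgA, read 6291.4, 2728.6 and 84.2 in the corpus and 2952.6, 3782.2 and 1266.7 in the colon, so the groups overlapped (1.10 ± 1.39, adjusted p 0.627). The count of 4 became 2 on leaving out colon array 1, 2 or 3 or corpus array 2 or 3.

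Of 21 genes of MHC class II and macrophages, Cd14, a receptor for bacterial lipopolysaccharide (1.81 ± 0.29), the protease Ctss (2.56 ± 0.58) and the lysozyme Lyz2 (1.09 ± 0.26) were higher in the colon and 0 were lower. Without colon array 1, 1 of them was called, and without corpus array 3, 1 member was called lower. The share higher in that list was 14.3%, against 10.5% over all genes tested. None of 8 tested genes of the T cell and intraepithelial lymphocyte list was called by limma. Of these, 2 were called higher in the colon without corpus array 1, and 1 with 24 arrays in the fit. Members of that list with the lowest p were Ptprc (1.16 ± 0.41, adjusted p 0.0859), Cd4 (0.53 ± 0.21, adjusted p 0.117) and Cd52 (2.69 ± 1.10, adjusted p 0.127). Ptprc and Cd52 are not confined to T cells. Cd52 read 431.3, 293.1 and 6846.2 in the colon and 336.4, 99.8 and 95.9 in the corpus. Colon array 3 stood far above all other arrays for Cd52.

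Hox genes, whose order along their clusters follows their order of expression along the body, were called in both directions. Of 17 tested, 5 were higher in the colon and 4 lower, with a median log2 difference of -0.05. Hoxb13 was 47.78-fold higher in the colon (5.58 ± 0.15, adjusted p 1.09e-07). Hoxa13, another gene of the last Hox group, read 128.3, 128.2 and 135.8 in the colon and 4.6, 5.1 and 7.2 in the corpus, at least 6.166-fold higher. Hoxa9 and Hoxa3 were 3.721-fold and 3.059-fold higher, and Hoxa5 was 1.764-fold higher.

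The Hox genes lower in the colon were Hoxc8, Hoxc5, Hoxc4 and Hoxb7. Hoxc8 read 318.7, 240.2 and 294.3 in the corpus and 51.2, 50.2 and 50 in the colon (-2.48 ± 0.18, adjusted p 3.52e-05). Hoxc5 read 201.7, 140.3 and 261.9 against 20.3, 35.3 and 47.5, and Hoxc4 was 2.801-fold lower. Hoxa5, Hoxc4 and Hoxb7 were named after their values were seen. All 3 Hoxc genes tested were thus lower in the colon, while of the 7 Hoxa genes tested 4 were higher and 0 lower. With the 60th percentile as the filter on dim probe sets, 2 Hox genes were called in each direction. The other Hox calls were of probe sets that this filter left untested: it kept 1306 of the 1604 calls, all still called.

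Of 26 other gut transcription factor genes tested, 9 were higher in the colon and 8 lower, with a median log2 difference of 0.01. Sox2, a factor of the foregut and its squamous and glandular epithelia, read 770.9, 574.9 and 715.3 in the corpus and 19.7, 10.1 and 14.7 in the colon, at least 32.16-fold lower (-5.01 ± 0.19, adjusted p 7.05e-07). Cdx1, an intestinal homeobox factor, read 913, 835.6 and 551.6 in the colon and 6.6, 22.6 and 9.6 in the corpus (5.11 ± 0.23, adjusted p 1.76e-06). These 2 genes were near mirror images in these arrays, each near or under the floor in the other region. Cdx2, also a colon marker, was too dim to be tested.

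Vdr, the vitamin D receptor, read 421.6, 309 and 606 in the colon and 4.7, 6 and 6.6 in the corpus, at least 20.24-fold higher. Nr5a2, a nuclear receptor of the intestinal epithelium, was 8.078-fold higher. Pitx1 read 1724.3, 1557.7 and 1702.3 in the corpus and 254.2, 214.7 and 295.2 in the colon (-2.72 ± 0.16), and Foxq1 was 4.398-fold lower. The other factors called, seen in the plot of factors by array, were named after their values were seen: Hnf4a, Nr1h4, Tcf21, Elf3, Klf5 and Foxa2 were higher in the colon by 0.71 to 2.76 log2 units, and Trp63, Barx2, Barx1, Gata4 and Six2 were lower, at -2.94 to -0.92.

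**Figure D4:**
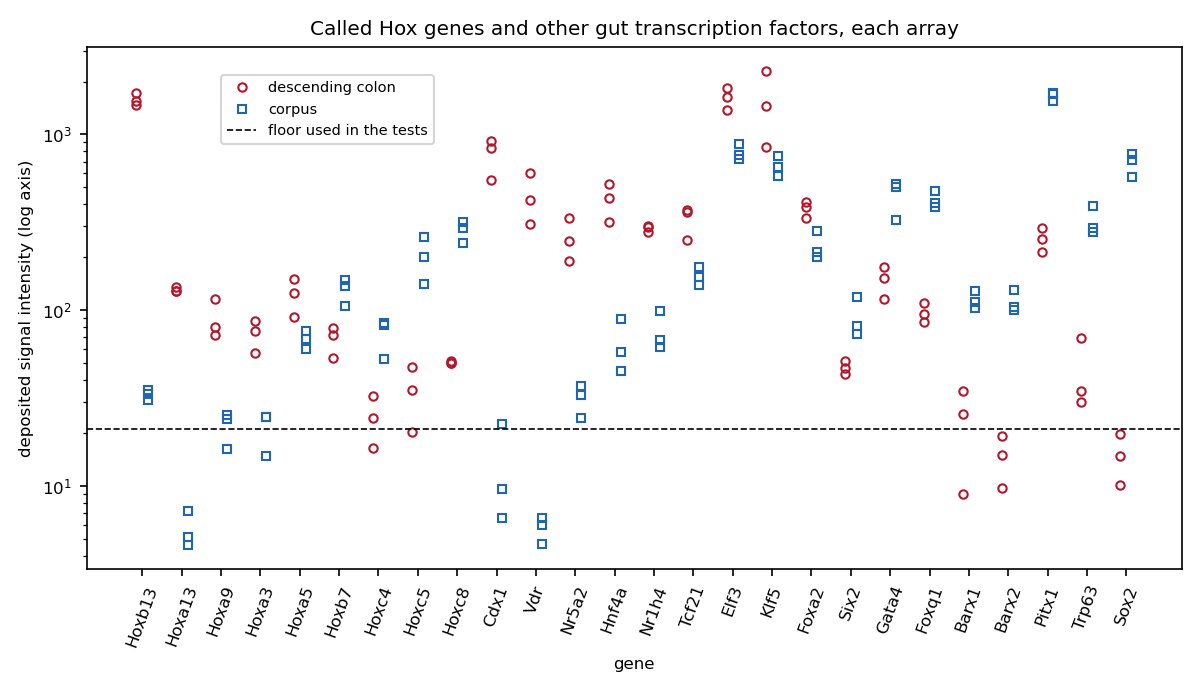
Deposited signal on each array (log axis) for the called Hox genes and for the other called gut transcription factor genes; circles are descending colon, squares corpus, and the dashed line is the floor of 21.2. Hoxb13, Hoxa13, Cdx1 and Vdr stand high in colon and near or under the floor in corpus, and Sox2 the reverse.

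Genes of xenobiotic metabolism were called in 27 of 38 cases, 8 higher and 19 lower in the colon, with a median log2 difference of -0.70. Aldh3a1, an aldehyde dehydrogenase, read 2191.6, 1557.8 and 2347.9 in the corpus and 87.7, 64.4 and 53.6 in the colon, 29.81-fold lower (-4.90 ± 0.24, adjusted p 2.67e-06). Gsta4, a glutathione transferase, was 24.55-fold lower and Nqo1, a quinone reductase, 12.44-fold lower. Adh7, an alcohol dehydrogenase of the stomach, read 1347.2, 1307.9 and 1418.3 against 299.7, 243.2 and 273.4 (-2.32 ± 0.14).

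On the colon side of that list, Abcb1a, a drug efflux pump of the luminal membrane, read 1107.9, 1114.6 and 477.6 against 7.5, 6.7 and 4.7, at least 39.56-fold higher (5.31 ± 0.33, adjusted p 1.14e-05). The sulfotransferase gene Sult1a1 was at least 13.41-fold higher. Adh1, named after its values were seen, was 9.993-fold higher in the colon (3.32 ± 0.22, adjusted p 1.75e-05), so that the alcohol dehydrogenase genes Adh1 and Adh7 differed in opposite directions.

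Fatty acid oxidation genes were lower in the colon for 7 of 19 tested and higher for 0, with a median of -0.52. Acaa2, a mitochondrial thiolase, read 4447.4, 4009.9 and 4941.5 in the corpus against 1889.9, 1669.6 and 1674.1 in the colon (-1.35 ± 0.15, adjusted p 0.000391). Pdk4, a kinase that turns off pyruvate dehydrogenase, was 3.309-fold lower, and Acaa1a, a peroxisomal thiolase, and the nuclear receptor gene Ppara were 1.934-fold and 2.007-fold lower. The count of 7 became 3 on leaving out any 1 corpus array and 4 without colon array 3.

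Cholesterol synthesis genes were lower for 6 of 14 tested and higher for 1. Fdps, farnesyl diphosphate synthase, read 2620.6, 2408 and 2849.1 in the corpus and 464.9, 826.3 and 300.7 in the colon (-2.43 ± 0.33, adjusted p 0.00112). Dhcr7, the last enzyme of the pathway, was 3.177-fold higher in the colon. The count of lower members was 2, 3 and 3 without corpus array 1, 2 and 3. Of 59 oxidative phosphorylation genes tested, 1 was called, Sdhd (0.64 ± 0.15), with a median log2 difference of -0.07, and of 14 citrate cycle genes 1 was called, Cs, citrate synthase (0.72 ± 0.15). The Sdhd call was lost on leaving out corpus array 1 or 3 or colon array 1, and the citrate cycle count was 2 without colon array 3.

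Among 10 enteroendocrine genes tested, 5 were lower in the colon and 2 higher. Ghrl, the hunger hormone ghrelin, read 1988.9, 3088.6 and 3705.9 in the corpus and 7.3, 6.3 and 7 in the colon, at least 133.7-fold lower (-7.06 ± 0.23, adjusted p 3.23e-07). Sst, somatostatin, which restrains acid secretion, read 675.1, 1318.8 and 1963.7 against 128.7, 176.4 and 106.2 (-3.17 ± 0.37). Hdc, which makes histamine, was 5.061-fold lower and Cpe, a prohormone-processing enzyme, 3.982-fold lower. Granule proteins differed in opposite directions: Chgb, chromogranin B, was 6.3-fold higher in the colon and Chga, chromogranin A, named after its values were seen, 2.122-fold lower. Tph1, which makes serotonin in enterochromaffin cells, was at least 4.457-fold higher. Among 11 enteric neuron and glia genes tested, Calb2 and Tac1, calretinin and the substance P precursor, were higher in the colon, 6.558-fold and 3.018-fold, and 0 were lower, or 1 without colon array 3.

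Smooth muscle genes were lower in the colon for 4 of 16 tested and higher for 0, with a median of -0.54. The 4 were Kcnmb1, a potassium channel subunit (-1.46 ± 0.22), Ckb, creatine kinase B (-1.66 ± 0.30), Des, desmin (-0.72 ± 0.16), and Acta2, smooth muscle actin (-0.64 ± 0.17). The summed signal of the list was 21918, 20372 and 38587 in the colon and 39709, 34935 and 39482 in the corpus, so colon array 3 lay within the corpus range. Without colon array 3 the count was 13, and without corpus array 2 or 3 it was 2. Collagen and matrix genes were lower for 8 of 28 tested and higher for 0, among them Col1a2 (-1.20 ± 0.15), Col1a1 (-1.31 ± 0.18) and Col3a1 (-0.96 ± 0.17), chains of the fibrillar collagens; without any 1 corpus array the count was 5. The muscle sums moved with these results, and their part in the other differences was not tested.

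Heat shock and immediate early genes were lower in the colon for 5 of 17 tested and higher for 0. Hspa1a and Hspa1b, inducible chaperones of near-identical sequence whose probe sets may bind both transcripts, were 5.931-fold and 3.848-fold lower. Their co-chaperone gene Dnajb1 was 2.738-fold lower, and the early response genes Ier3 and Egr1 were 3.495-fold and 2.121-fold lower. Without colon array 2 or 3, 1 member was called higher. Of 26 cell cycle genes, Ccnb2, Ccna2 and Stmn1 were higher in the colon by 0.68 to 0.74 log2 units and 0 were lower. This share of 11.5% higher was close to the 10.5% over all genes tested. The count was 1 without corpus array 2 or 3 or colon array 2. The Ccna2 and Stmn1 calls were lost in 8 and 10 of 20 alternative analyses. Of 11 Wnt target and crypt base genes, 0 were higher and 2 were lower, the adhesion molecule Cd44 (-1.75 ± 0.22) and the ephrin receptor Ephb3 (-0.81 ± 0.23). The Ephb3 call was lost in 12 of 19 alternative analyses, and without corpus array 1 another member was called higher.

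Lists with few calls complete the comparison. Over all genes tested 10.5% were called higher and 11.2% lower. The mast cell protease Cpa3 was 3.418-fold lower in the colon, 1 of 5 mast cell genes tested, and without corpus array 1 or 2 or colon array 1 none was called, and without corpus array 3 or colon array 3 the count was 2. Sec61b, a subunit of the protein translocation channel, was the 1 member called of 17 genes of endoplasmic reticulum folding (0.72 ± 0.16); this call was lost without corpus array 1 (adjusted p 0.0587), and without colon array 2 another member was called lower. Bhlhe40, a transcriptional repressor of the clock, was the 1 called of 10 circadian genes (1.12 ± 0.19), while without colon array 3 the counts were 3 higher and 1 lower. Neither red blood cell gene tested was called.

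Markers of neighbouring tissues differed between single arrays. Colon array 2 read 2692.5 for Prss2, 3569.7 for Ctrb1 and 2041.4 for Cel, exocrine pancreas genes, where the other colon arrays read 11.5 to 808.5. Of the 9 pancreas and liver genes tested, Cela1 was higher in the colon (2.28 ± 0.19). Clps, a partner of pancreatic lipase, and Pnliprp2, a lipase related to it, were lower (-4.40 ± 0.49 and -1.72 ± 0.49). The Pnliprp2 call was lost in 10 of 19 alternative analyses, among them on leaving out any corpus array or colon array 1 or 3, and without colon array 1 the count of higher members was 2. Colon array 3 read 1093.9 for Acta1, skeletal muscle actin, where the other 5 arrays read 25.5 to 71.8, while the skeletal muscle genes Mylpf, Ckm and Tnnt3 were at 22 to 63.2 in that array. The 1 skeletal muscle list member called was Eno3 (1.88 ± 0.18). Of 10 adipocyte genes tested, 2 were higher in the colon and 2 lower, with a median log2 difference of -0.09. Adipoq, adiponectin, was 2.899-fold higher in the colon and Lpl, lipoprotein lipase, 3.229-fold lower. The other members called were Car3, named above as a carbonic anhydrase gene, which was 2.786-fold higher, and Cebpa, 1.996-fold lower. Fabp4, an adipocyte marker, was not called (0.1 ± 0.21, adjusted p 0.789). The Car3 call was lost in 4 of 20 alternative analyses. The Adipoq call was lost in 8 of 20 alternative analyses, among them on leaving out corpus array 1 or 3 or colon array 1 or 3. The part of pancreas, skeletal muscle or fat in the results was not tested.

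Several genes were read by more than 1 probe set. Of 941 such genes, 269 had a call, 112 had at least 2 and 2 were called in both directions. Ctse, the aspartic protease cathepsin E of the stomach surface, read 3621.8, 3700.2 and 3145.6 in the corpus and 606.9, 739.9 and 487.6 in the colon by one probe set (-2.53 ± 0.18), but was higher in the colon by the other two (0.90 ± 0.17 and 0.87 ± 0.24). Nup50, a nuclear pore protein, differed by 0.88 in one probe set and by -0.67 in the other. The direction for these 2 genes is therefore uncertain.

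The same 2 regions of germ-free mice, which carry no microbiota, were set beside these results. Region markers went against the label of germ-free corpus array 3, which read 175.8 for Atp4a and 1399.4 for Hoxb13. With germ-free descending colon array 3 it formed the closest of all 276 pairs of arrays, at a correlation of 0.988. Germ-free descending colon array 1 read 111.6 for Hoxb13, 233.3 for Aqp8 and 4005.1 for Fabp2, a small intestinal gene. Other colon markers were high in it, with Car1 at 6818.1, Car4 at 2227.4, Cdx1 at 667.3 and Zg16 at 6558.8. Fabp2 also read 1181.9 and 894.4 in germ-free colon arrays 2 and 3, so the label of array 1 is in doubt rather than opposed by all its markers. With all 6 germ-free arrays limma called 0 probe sets, while 547 had an unadjusted p under 0.05. Without those 2 libraries, which leaves 2 arrays a region, 1281 were called (16.5%), 664 higher and 617 lower in the colon. Germ-free corpus array 2 still read 1432.5 for Car1, where germ-free corpus array 1 read 15.7. Array 2 also stood higher for Retnlb, Muc3 and Tff3, at 281, 167.4 and 470.3 against 7, 7 and 125.2. For Pla2g2a and Sycn it did not, at 7.7 and 16.4 against 13.9 and 19.7.

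Of the 1604 probe sets called in conventional mice, 1537 (95.8%) had the same sign in these 4 germ-free arrays, against 71.9% of all probe sets tested. Region markers entered the choice of the 4 arrays, so the agreement of region genes is in part set by that choice. With all 6 germ-free arrays 1552 (96.8%) had the same sign. In conventional mice and in the 4 arrays alike 887 were called, all with the same sign. This is 55.3% of the conventional calls and 69.2% of the germ-free calls. The median log2 difference of the conventional calls was 1.18 in conventional and 1.09 in germ-free mice for those higher in the colon, and -1.34 and -1.14 for those lower. Of the 169 calls over 10-fold, 167 had the same sign and 163 were called in the germ-free arrays. The exceptions in sign were Defa35 and the unnamed probe set flagged below. Defa35 differed by 3.85 in conventional mice and by -1.23 in the 4 germ-free arrays, and its probe set can bind related transcripts. The list members called in conventional mice were also called, with the same sign, for 10 of 11 goblet cell genes, 15 of 18 colonocyte genes, 23 of 27 squamous genes, 6 of 6 gastric mucus genes, 14 of 17 transcription factor genes outside the Hox clusters, 5 of 9 Hox genes and 21 of 27 xenobiotic genes. The counts were 3 of 7 for tight junction genes, 3 of 8 for collagen and matrix genes, 3 of 7 for cholesterol synthesis genes, 2 of 4 for carbonic anhydrases, 1 of 4 for adipocyte genes, of which 2 had the same sign, 0 of 3 for cell cycle genes and 0 of 2 for Wnt target and crypt base genes. Krtdap differed by -8.64 ± 0.25 in germ-free mice, the value found in conventional mice, Atp4b by -8.48 ± 0.34 and Pla2g2a by 6.22 ± 0.25.

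The difference of the regional differences was tested directly. With all 12 arrays 0 probe sets passed in limma, 277 had an unadjusted p under 0.05 and the lowest adjusted p was 0.052. Without the 2 libraries 1 passed (0.0129%) and 744 had an unadjusted p under 0.05. That probe set has no gene name here, and no named gene passed. For Defa35, whose sign changed between the states, the adjusted p of the difference was 0.0643. Cldn2, chosen after its values were seen, read 283.8, 212.7 and 198.7 in conventional colon, 30.7 and 16.2 in germ-free colon arrays 2 and 3, and at most 13.3 in the corpus arrays used (adjusted p of the difference 0.0643). Germ-free colon array 1, left out here, read 290.3. Zg16 differed by 8.31 in conventional and 5.41 in germ-free mice (adjusted p of the difference 0.155). In the germ-free arrays used it read 7143.3 and 8342 in the colon and 105.4 and 310.8 in the corpus. The conventional arrays read 6025 to 9136 in the colon and 5.4 to 26.6 in the corpus. A p that misses the threshold does not show that the states were alike.

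**Figure D5:**
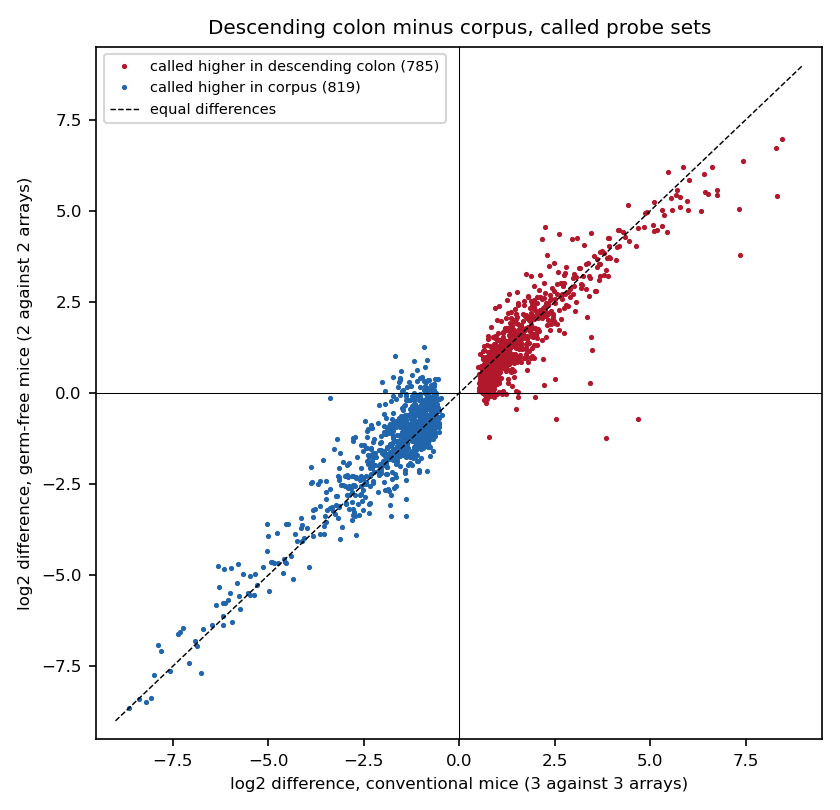
Log2 difference between descending colon and corpus in germ-free mice (vertical axis, 2 against 2 arrays) against that in conventional mice (horizontal axis, 3 against 3 arrays) for the 1604 probe sets called in conventional mice; the dashed line marks equal differences. Most points lie along the line, 1537 of them with the same sign, and 67 lie on the other side of 0.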

How the data were processed

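Total RNA of 24 mouse gut pieces was measured on Affymetrix arrays, with 3 arrays in each of 8 groups. Values are the authors' deposited signal intensities, linear, one for each probe set and array. With the outer values trimmed, the 6 arrays had nearly equal means (200.1), so these intensities were taken as already scaled, and no scaling was added. How they were computed from the scans is not given in the sources used here. The 25th percentile, 21.2, served as a floor, and probe sets above 51.5, the 40th percentile, on at least 3 of the 6 arrays were tested. Probe sets came from the platform annotation: of the 7753 tested, 6982 had 1 gene (5888 genes), 267 several and 504 none. Symbols were checked through Entrez identifiers in the reference gene table, where 10839 matched and 0 changed.

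Differences were fitted to the 6 arrays with limma 3.58.1 in R 4.3.3 (statmod 1.5.0), with an intensity trend in the moderated variance. Tests were two-sided with Benjamini-Hochberg adjustment. A gene in a list was represented by its tested probe set of highest mean signal, and the others of the gene were tested as well. Named were the 12 largest called differences in each direction whose groups did not overlap, up to 6 called members of lowest p for each of 35 lists (up to 3 of lowest p where none was called), and a set of region and tissue markers. The members and the lists were chosen with earlier results of these data known. Motifs were searched in the first listed promoter of each gene, with the probe set of lowest p giving its difference. Alternatives covered floor, filter, scaling, log scale, variance model, arrays in the fit, pairing by number and leaving out each array. On simulated data with the spread of these arrays and 7753 probe sets, 53 of 100 changes of 1 and 85 of 100 changes of 2 on the log2 scale were recovered, with 7 false calls. Only these 200 probe sets differed in the simulation, while 20.7% were called in the data. The adjustment depends on that share, so these rates do not give those of the comparison itself. The number of arrays limits the precision.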

Additional observations from a re-analysis of the deposited data

Results flagged for a closer look

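The regional difference of 1 probe set differed between conventional and germ-free mice by the direct test with 10 arrays. It has no gene name here and read 946.7, 1118.2 and 459.4 in conventional descending colon and 20.7, 42.2 and 32.9 in conventional corpus (4.67 ± 0.38). In germ-free mice it read 251.5 and 132 in descending colon arrays 2 and 3 and 380.4 and 231 in corpus arrays 1 and 2 (-0.70 ± 0.38). The log2 difference was larger in conventional mice by 5.37 ± 0.61 (adjusted p 0.0229). With all 12 arrays the adjusted p was 0.052. By its name it is a probe set that can bind several related transcripts.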

How the results depend on the processing

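The count of 1604 calls in conventional mice ran from 1163 (without corpus array 3) to 1664 (without colon array 3) on leaving out 1 array, and from 1190 (24 arrays in the fit) to 1666 (19 arrays, chosen after seeing the data, as was the fit of 21 arrays with 1660) under the other settings; those higher in the colon numbered 551 to 746 and those lower 603 to 918 on leaving out 1 array. None of the 1604 changed sign under these settings; the filter at the 60th percentile tested 1306 of them, the others all. Equal array medians moved the share higher from 48.9% to 53.5% of the calls. Without a filter on dim probe sets 1216 were called and with the 60th percentile 1363. Deviations from the group means correlated at -0.06, 0.01 and 0.11 for equal replicate numbers 1, 2 and 3 and at -0.12 to 0.12 for unequal ones. With 3 arrays a group these values cannot show whether equal numbers mark the same mouse. With the number as a replicate block 1389 were called. Of 156 named probe sets 145 were called, 99 of them under every setting run, 46 lost the call under at least 1 and 0 reversed. Of 1470 counts of list members over the settings, 1330 stayed within 1.5 times and 140 did not. In germ-free mice the count of 0 became 1281 without corpus array 3 and descending colon array 1, and leaving out 1 array gave 0 to 1049, the latter without corpus array 3; the difference between states gave 1 without both arrays and 0 to 2 on leaving out 1 array, with 2 without germ-free corpus array 3 and 1 without germ-free corpus array 1 or conventional descending colon array 3. Signals under the floor limit what the low side of a difference can show. In 40 calls in favour of the colon and 64 in favour of the corpus, all low arrays lay at or under it. Their folds are lower bounds. Where only some low arrays lay under the floor, as for Krtdap and Zg16, the fold is understated as well.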

Other observations

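The genes below belong to none of the lists and were chosen after their values were seen. Hao2, a peroxisomal hydroxy acid oxidase, read 1504.6, 2027.9 and 854.7 in the colon and 1.3, 4.7 and 5.2 in the corpus (6.02 ± 0.30, adjusted p 3.14e-06). Myb, a transcription factor of proliferating crypt and blood cells, read 898.8, 1056.7 and 848.4 against 25, 37 and 15.6 (5.11 ± 0.24). Ddc, which makes dopamine and serotonin, was higher in the colon by 3.89 ± 0.21, Maoa, a monoamine oxidase, by 3.44 ± 0.20 and Aoc1, a diamine oxidase, by 3.78 ± 0.28. Slc26a2, a sulfate transporter, was higher by 3.69 ± 0.30, and Lgals4, a galectin of the intestinal epithelium, read 7633.4 to 9633.5 against 1075.6 to 1481.5. Mptx1, a mucosal pentraxin, read 241.9, 7386.2 and 800.3 in the colon and 23.3, 27.8 and 26 in the corpus, so the colon arrays spread over 30-fold.

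On the corpus side, Ada, adenosine deaminase, was lower in the colon by all 3 of its probe sets, with 4111.2, 3053.9 and 4149.2 in the corpus against 59.6, 40.1 and 42.6 by the one of largest difference (-6.32 ± 0.21, adjusted p 3.18e-07). Flg, filaggrin, and Asprv1, a protease that processes it, were lower in the colon (-6.29 ± 0.24 and -6.18 ± 0.29). Ltf, lactoferrin, an iron-binding antimicrobial protein, read 376.9, 926.7 and 516.5 in the corpus and 15.7, 8.4 and 14.2 in the colon. Bpifb1, a secreted protein of mucosal surfaces, read 1982.9, 3172.3 and 558.3 against 2.2, 2.9 and 15. Pla2g1b, a digestive phospholipase, read 6750.8, 10827 and 10512 against 547.7, 496 and 333.5 (-4.35 ± 0.25). Wnt4 and Irx3, a signalling ligand and a homeobox factor, were lower in the colon by 3.83 ± 0.19 and 3.21 ± 0.26 log2 units.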
